A study of Mus musculus with 5 samples.

Results

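The 9 genes described here encode the receptor chains through which bone marrow cells read colony-stimulating factors and stem cell cytokines. They are Csf1r, Csf3r, Csf2ra, Csf2rb, Csf2rb2, Il3ra, Il6ra, Kit and Flt3. They were taken by symbol from the 31053 genes of the count matrices, and all 9 were found. Single-cell RNA sequencing (10x 3′ chemistry) had been run on marrow of young BALB/c mice in 5 libraries, 1 library per group. Whole bone marrow (BM) came from untreated mice (naive BM) and from mice killed 2 days (D2 CTX BM) or 7 days (D7 CTX BM) after an intraperitoneal injection of cyclophosphamide (CTX) at 150 mg/kg. CTX is an alkylating chemotherapy drug that kills dividing marrow cells. Each whole BM library was a pool of equal cell numbers from 3 mice after removal of dead cells, so the mice cannot be told apart. Its cells are labelled CD45+ mononuclear cells, yet clusters led by globin genes and by the stromal genes Cxcl12 and Adipoq were present. The other 2 libraries held CD11b+Ly6Chi monocytes sorted from naive mice and from CTX-treated mice. The labels give neither the day of the sorted CTX library, which the study's text places at day 7, nor how many mice went into the sort. With no replicate library no test between conditions was possible, and each interval below covers counting error only.

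These receptors are of several kinds. Csf1r, Kit and Flt3 are receptor tyrosine kinases that bind Csf1 or Il34, stem cell factor (Kitl) and Flt3l. Csf3r is the receptor of G-CSF, the cytokine that drives neutrophil production. Csf2ra and Il3ra are ligand-binding alpha chains for GM-CSF and IL-3 that signal through the common beta chain Csf2rb, and Csf2rb2 is a second beta chain, found in mice, that serves IL-3 alone. Il6ra binds IL-6 and signals through Il6st (gp130). In marrow, Kit marks stem and early progenitor cells, Flt3 lymphoid and dendritic progenitors, Csf3r the neutrophil lineage and Csf1r the monocyte and macrophage lineage.

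The promoters were searched for a short core of the PU.1 motif, because PU.1 (Spi1) is a textbook regulator of myeloid receptor genes. RefSeq promoter sequence of the GRCm38.p6 assembly was on hand for 7 of the 9 genes. Within the 250 bases before the start, GAGGAA or its reverse complement TTCCTC was found in 5 of the 7, against 23.3% of 32851 mouse promoters. The 30 bases around each match are shown because these 5 genes span the neutrophil, monocyte, basophil and stem cell patterns described below. Capitals mark the motif, which occurs as 2 adjacent copies in Csf2ra, and the strand shown is the one that reads GAGGAA.
Csf2ra chr19:61228419-61228448, minus strand: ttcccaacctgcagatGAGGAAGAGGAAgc
Csf2rb2 chr15:78305871-78305900, plus strand: ctgacttctctgGAGGAAgcagacacagag
Csf3r chr4:126024561-126024590, plus strand: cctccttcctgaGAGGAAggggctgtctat
Kit chr5:75574752-75574781, plus strand: ggagagtgctagGAGGAAgaggatccaggg
Il6ra chr3:89913249-89913278, plus strand: agtgaaacatttGAGGAAccggtgctgaag
As GENCODE M21 draws the genes, the window of Csf3r lies inside the gene, that of Csf2ra overlaps the start, and the other 3 lie upstream. Flt3 and Il3ra held no match. The C/EBP letters TTNNGNAAT (either strand) occurred in 0 of the 7 promoters and in 10.2% of all promoters. A match of letters is a description of the sequence and not a binding site.

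Csf2rb and Csf2rb2 need a caution of their own. The genes lie on chromosome 15 (Csf2rb at chr15:78325752-78353847, Csf2rb2 at chr15:78282507-78305721, mm10), 20031 bases apart on opposite strands. Their longest transcripts align over 3108 bases at 95.1% identity, and 387 windows of 91 bases are identical in both. In the last 400 bases, where 3′ chemistry reads most, the best alignment had 81.8% identity and no window of 91 bases was shared. Some reads could still be assigned to the wrong chain, so the levels of this pair carry that uncertainty.

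Between 1891 and 8290 cells per library were kept (200 or more genes, mitochondrial share under 20%), with median depths of 3033.5 to 10299 unique molecular identifiers (UMIs) per cell. Pairs of libraries shared 2 to 16 cell barcodes. Levels are given in CPM, the UMIs of a gene scaled to 1000000 UMIs of the library or class, and are compared only within a gene. The 2 sorted libraries carried their monocyte markers (4975 and 4497 CPM summed over 7 genes, none at 0). T cell markers summed to 2.38 and 5.76 CPM, erythroid markers to 0.539 and 1.75 CPM, immature or mature B cell markers to 713 and 185 CPM and plasma cell markers to 408 and 131 CPM. A cluster led by Igha and Jchain (109 naive and 154 CTX cells) lay among the cycling clusters and one led by Ighg2b and Igkc (92 and 111 cells) among the other main clusters. A list of 5 mature neutrophil genes summed to 938 CPM in naive and 68.5 CPM in CTX sorted monocytes, of which the chemokine gene Cxcl2 made up 888 and 45.8 CPM. The neutrophil receptor Cxcr2 had 2.33 and 2.97 CPM. The part of these cells or genes in the sorted results was not tested.

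Across whole libraries, Csf3r was read at 86.4 CPM in naive BM, 215 CPM in D2 CTX BM and 113 CPM in D7 CTX BM. Flt3 had 7.16, 17.8 and 5.74 CPM in these libraries, and Kit 12.4, 23.3 and 5.62 CPM. All 3 receptors were highest on day 2, but Kit and Flt3 ended below naive BM on day 7 while Csf3r ended above it. Csf2rb followed the course of Csf3r with 42.5, 83.1 and 46.3 CPM, and Csf2rb2 had 7.03, 12.2 and 6.95 CPM. Il6ra was measured at 37.8, 55.9 and 40.3 CPM. Csf2ra behaved differently, with 50.3, 49.9 and 90.4 CPM, so that its one high library was day 7. Csf1r (26.5, 30.6 and 26.9 CPM) and Il3ra (11.1, 13.4 and 10.9 CPM) moved least. In sorted monocytes Csf1r, Csf2ra and Il6ra lay at 146 to 244 CPM, above their level in any whole BM library, and Kit was nearly absent (0.180 CPM in naive and 0.908 CPM in CTX sorted monocytes).

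**Figure D1:**
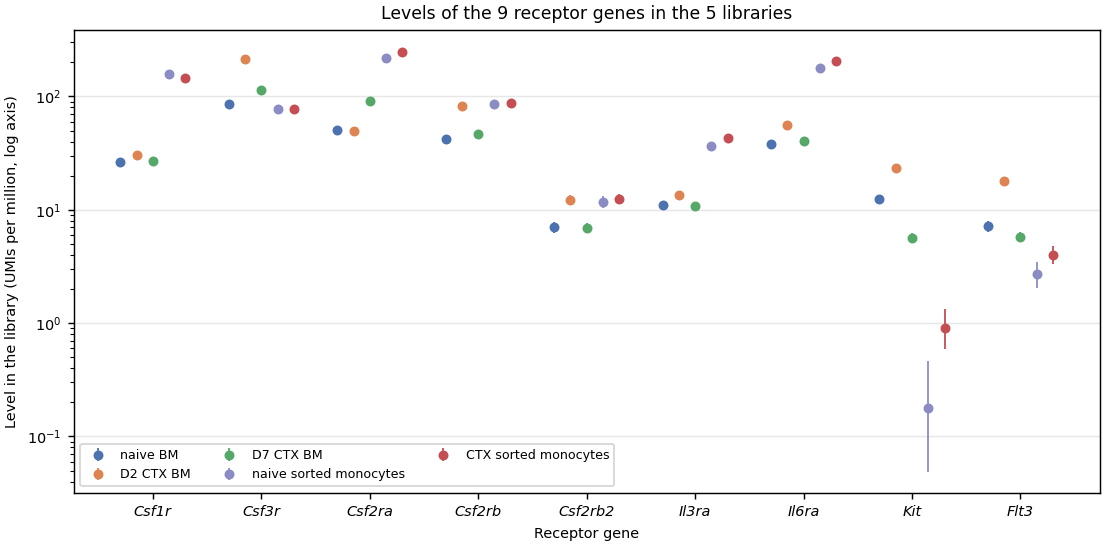
Level of each receptor gene in the 5 libraries, in CPM on a log axis; each point is 1 library and each bar its exact 95% Poisson interval (counting error only). Csf3r, Csf2rb, Flt3 and Kit are highest among the whole BM libraries on day 2, Csf2ra on day 7, and Kit falls to 0.180 CPM in naive sorted monocytes.

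A gene was called when its library levels, with 1 CPM added, lay at least 1 log2 unit apart. On day 2, 2 of the 9 receptors were called against naive BM, both higher, beside a background of 9.3% of all genes compared (6.2% higher). Csf3r was 1.32 log2 units higher (95% interval 1.26 to 1.37) and Flt3 1.31 higher (1.11 to 1.51). Csf2rb (0.97) and Kit (0.91) stayed just short of the call. The median receptor lay at 0.72 and the median gene of the library at 0.19.

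On day 7, 1 of the 9 was called against naive BM, beside a background of 26% (24.9% lower). Kit was 1.14 log2 units lower (0.95 to 1.33). The median of all genes had itself shifted by -0.62 in this comparison, and the median receptor stood at 0.02. Relative to the median gene, Kit was only 0.39 log2 units lower, and under that scaling Csf2ra and Csf3r were called higher in place of Kit. That scaling also moved the split of all called genes, from 1.09% higher and 24.9% lower to 7.59% higher and 6.78% lower. Signs of receptors near 0 turned with it: Flt3 went from -0.28 to 0.35 with 1 CPM added.

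Between the 2 CTX libraries, Flt3 (-1.63) and Kit (-2.05) were called lower on day 7 than on day 2, beside a background of 38.9% (37.8% lower). The median of all genes was at -0.78 here, and median scaling moved the split of calls from 1.12% higher and 37.8% lower to 7.36% and 8.88%. Under it Csf2ra was called higher and Kit lower. The comparisons of day 2 and of day 7 with naive BM share the naive library, so their values are not independent of each other.

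To see which cells carried each receptor, cells were clustered with the 9 genes left out of the clustering genes, and the clusters were named from marker lists. Csf3r formed a gradient over the neutrophil classes. In mature neutrophil-like cells (Il1b, Cxcl2, Cxcr2) it was 1088 CPM in naive BM, 2120 CPM on day 2 and 836 CPM on day 7. Immature neutrophil-like cells (Mmp8, Mmp9, Ly6g) had 248, 455 and 173 CPM, and progenitor or pre-neutrophil-like cells (Camp, Ngp, Cebpe) 61.7, 150 and 52.8 CPM. The order mature, immature, progenitor held in each library with intervals that did not overlap. Monocyte-like cells carried 123, 159 and 133 CPM, so they lay between immature and progenitor neutrophils, although on day 2 their interval (133 to 188 CPM) contained the progenitor level. B lineage cells, which should lack Csf3r, had 71.1 CPM on day 2. That level is not subtracted here, and no day 2 rise in monocyte-like cells is read.

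All 3 neutrophil classes held more Csf3r on day 2 and less on day 7 than in naive BM. The day 2 ratios were 0.96 log2 units in mature cells (0.87 to 1.06), 0.88 in immature cells (0.78 to 0.97) and 1.28 in progenitors (1.11 to 1.45), of which only the last was called. It was 1 of 3 receptors compared in that class, beside a background of 5.76% (4.75% higher). In immature cells none of 5 was called, beside 4.93%. On day 7 the 3 ratios were -0.38, -0.52 and -0.23, of which the first ranged up to 0.15 under other processing. The median gene of these classes had itself moved by 0.44, 0.28 and 0.24 on day 2 and by -0.14, -0.19 and -0.13 on day 7. Relative to it, with 1 CPM added, the Csf3r ratios were 0.52, 0.59 and 1.02 on day 2. On day 7 they were -0.24, -0.32 and -0.09. In GMP-like cells, the granulocyte-monocyte progenitors, Csf3r was read at 54.1, 53.3 and 47.4 CPM, with ratios of -0.02 and -0.19 whose intervals contained 0. B lineage cells, which should lack Csf3r, had 11.2, 71.1 and 9.85 CPM. The day 2 level in GMP-like cells lay below that. GMP-like cells were far deeper than B lineage cells on day 2, so the B lineage CPM cannot be carried over to them. Whether Csf3r was steady in GMP-like cells is therefore not shown either way. None of the receptors was called in GMP-like cells on day 2, beside a background of 15.6%.

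Csf3r transcripts were also found in cells that should lack them, and more of them on day 2. B lineage cells had 11.2 CPM in naive BM, 71.1 CPM on day 2 and 9.85 CPM on day 7, and erythroid-like cells 5.72, 65.0 and 13.2 CPM. As a percentage of the level in mature neutrophils, Csf3r in B lineage cells was 1.03%, 3.35% and 1.18%. The 5 mature neutrophil markers summed in the same cells gave 1.05%, 3.18% and 1.31%, so Csf3r and the marker sum moved in like proportion there. In this class Csf3r (2.66) and Csf2rb (2.41) were called higher on day 2, which was 2 of the 3 receptors compared beside a background of 13.3% (8.23% higher). With the B lineage level subtracted, the day 2 ratio was 0.93 in mature cells, 0.70 in immature cells and 0.63 in progenitors, still positive in all 3 but no longer called in the last. The same CPM was taken from every class whatever its depth, so how much to subtract in deeper cells was not settled. The markers themselves went from 4833 CPM in naive mature neutrophils to 9772 CPM on day 2 and 2725 CPM on day 7, and the part of that shift in the Csf3r result was not tested.

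With each cell of Csf3r data thinned to 1000 UMIs, which left out 84, 318 and 14 mature neutrophils in naive, D2 and D7 CTX BM, 61.2%, 81.4% and 54.4% of the rest held a Csf3r UMI. In B lineage cells the shares were 1.03%, 5.38% and 0.93%. Median depths before thinning were 2019, 1637.5 and 3422 UMIs in the mature neutrophils and 2859.5, 2565 and 7649 UMIs in the B lineage. Without thinning the mature neutrophil shares were 80.3%, 89.9% and 90.8%, and the B lineage shares 3.40%, 12.7% and 7.17%.

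**Figure D2:**
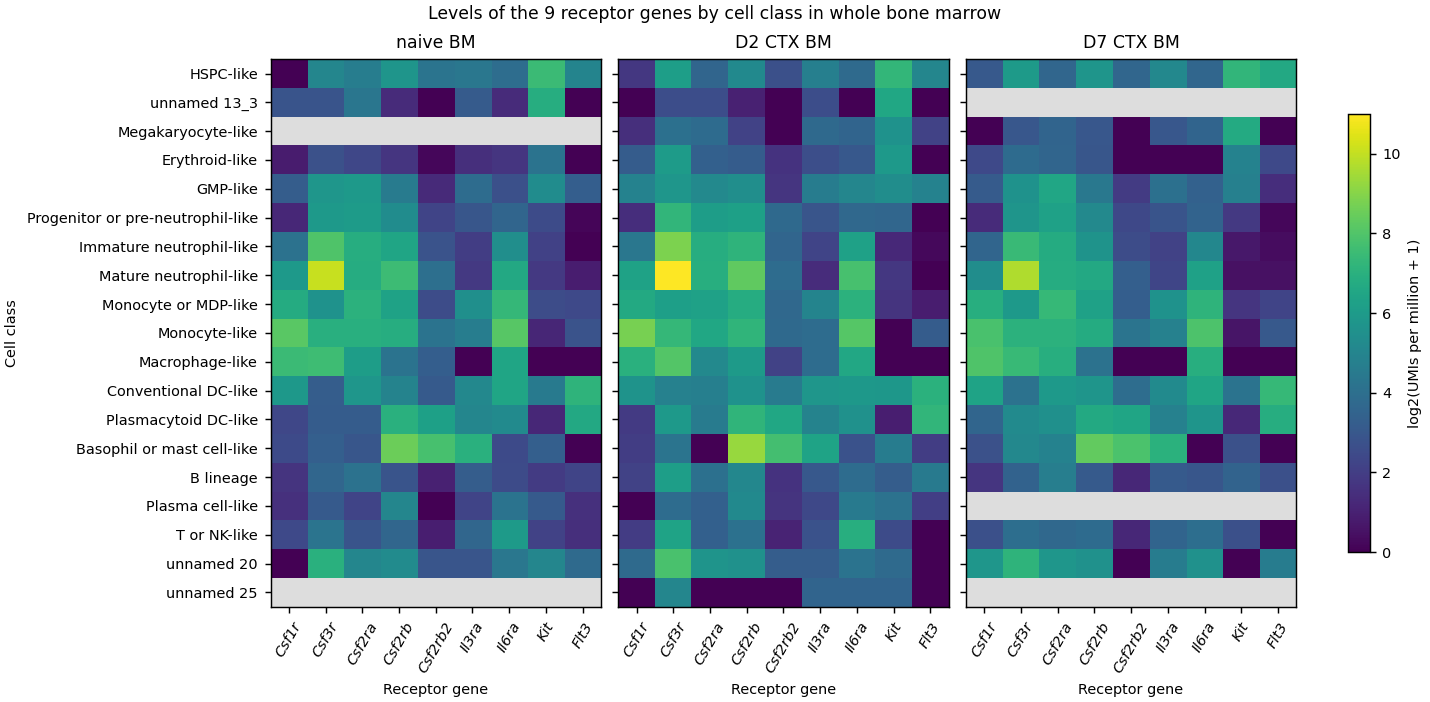
Level of each receptor gene (columns) in each cell class (rows) of the 3 whole BM libraries, coloured by log2(CPM + 1); classes with under 20 cells in a library are grey. Csf3r peaks in mature neutrophil-like cells, Csf1r and Il6ra in monocyte-like cells, the beta chains in basophil or mast cell-like cells, Kit in HSPC-like cells and Flt3 in dendritic cell-like classes.

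Csf1r was highest in monocyte-like cells (Ly6c2, Ccr2, F13a1) at 294 CPM in naive BM, 424 CPM on day 2 and 230 CPM on day 7. Macrophage-like cells, whose cells were shallow, had 182, 126 and 253 CPM from only 15 to 36 UMIs, so their place relative to monocytes was not settled in naive and D7 CTX BM. The class that joins monocytes and monocyte-dendritic progenitors (monocyte or MDP-like) had 108, 103 and 119 CPM and conventional DC-like cells 57.3, 49.4 and 81.4 CPM. In monocyte-like cells Csf1r was 0.53 log2 units higher on day 2 (0.34 to 0.71) and 0.35 lower on day 7 (0.20 to 0.50), neither called. With each cell gated on markers alone the day 2 ratio was 0.03. No receptor was called in this class on day 2, beside a background of 6.44%. The share of monocyte-like cells with a Csf1r UMI at 1000 UMIs moved the same way, from 28.2% to 36.5% and 21.7%, against 0.295%, 0.458% and 0.465% in the B lineage. These monocyte-like cells had median depths of 5594, 5607 and 6638 UMIs, and without thinning their shares were 76.0%, 80.3% and 74.6% and those of the B lineage 0.923%, 1.18% and 1.35%.

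Csf2ra, the GM-CSF receptor alpha chain, was spread over the myeloid classes. In naive BM it stood at 133 CPM in monocyte or MDP-like cells, 120 CPM in monocyte-like, 113 CPM in immature and 111 CPM in mature neutrophil-like cells, with overlapping intervals. Progenitor or pre-neutrophil-like cells (65.5 CPM) and GMP-like cells (59.0 CPM) lay lower and overlapped each other. Neutrophils held that level through CTX, with 113, 113 and 108 CPM in immature and 111, 118 and 111 CPM in mature cells.

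The early monocytic classes had different Csf2ra levels in the 3 libraries. Monocyte or MDP-like cells went from 133 CPM to 78.6 CPM on day 2 and 164 CPM on day 7, log2 ratios of -0.76 (-1.04 to -0.48) and 0.30 (0.09 to 0.52). GMP-like cells went from 59.0 CPM to 35.4 and 91.2 CPM, ratios of -0.74 (-1.14 to -0.34) and 0.63 (0.34 to 0.93). Monocyte-like cells had 120, 92.7 and 133 CPM. None of these passed the call against naive BM (background on day 2 of 5.07% in monocyte or MDP-like cells), and the day 2 ratio in GMP-like cells ranged from -1.07 to -0.14 over the alternatives. From day 2 to day 7 the rise was called in GMP-like cells (1.37, background 29.6%, 4.67% higher) and in monocyte or MDP-like cells (1.06, background 6.17%, 2.25% higher).

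The Csf2ra shares at 1000 UMIs were 16.4%, 7.61% and 16.5% in monocyte or MDP-like cells and 4.27%, 9.23% and 8.87% in GMP-like cells. No order is read from either, since the first turned without thinning and the second went against the CPM. Erythroid-like cells, which should lack Csf2ra, gave 0.718%, 0% and 5.26%, the last from 1 of 19 cells. The 65 GMP-like cells of day 2 had a median depth of 40738 UMIs against 11774 in naive BM and 10359 on day 7. Monocyte or MDP-like cells had 21510 UMIs on day 2 against 12715 and 12128.5, and the erythroid-like cells 15774.5, 3815 and 22133 UMIs in naive, D2 and D7 CTX BM. Before thinning the Csf2ra shares were 75.5%, 76.1% and 78.1% in monocyte or MDP-like cells and 45.5%, 67.7% and 58.6% in GMP-like cells, against 5.97%, 9.09% and 14.3% in erythroid-like cells. Whether the cells of a class were the same mixture in each library was not tested.

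Csf2rb, the common beta chain, peaked in basophil or mast cell-like cells (Mcpt8, Prss34, Cpa3) at 366 CPM in naive BM, 630 CPM on day 2 and 324 CPM on day 7. Mature neutrophil-like cells followed with 184, 319 and 97.4 CPM, then plasmacytoid DC-like cells with 127, 145 and 103 CPM and monocyte-like cells with 115, 145 and 108 CPM, which overlapped in each library. Immature neutrophil-like cells had 86.5, 141 and 48.9 CPM. Basophils ranked first in each library with intervals clear of every other class. On day 7 mature neutrophils, plasmacytoid DC-like and monocyte-like cells could no longer be ordered.

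In neutrophils Csf2rb lay above naive BM on day 2 and below it on day 7. It was 0.80 log2 units higher in mature cells (0.55 to 1.04) and 0.70 higher in immature cells (0.54 to 0.86) on day 2, then 0.92 and 0.82 lower than naive on day 7. None of these passed the call against naive BM. B lineage cells had 6.16 CPM of Csf2rb in naive BM, 32.7 CPM on day 2 and 7.61 CPM on day 7. With that level subtracted, the day 2 ratios were 0.69 in mature and 0.42 in immature cells. Relative to the median gene of the class, without subtraction, they were 0.35 and 0.41 on day 2 and -0.77 and -0.62 on day 7.

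From day 2 to day 7, Csf2rb, Csf3r and Il6ra were lower together in neutrophils. In mature cells the ratios were -1.71, -1.34 and -1.49, the 3 of 5 receptors called there beside a background of 34.2% (30.4% lower). In immature cells they were -1.52, -1.39 and -1.26, again 3 of 5, beside 19% (17.1% lower). In progenitor or pre-neutrophil-like cells Csf2rb (-1.11) and Csf3r were called, 2 of 5 beside 11.5% (10.3% lower). The median gene was lower as well, at -0.54 in the mature, -0.41 in the immature and -0.33 in the progenitor class. These ratios are not corrected for that. In GMP-like cells Csf2rb was called at -1.06 (24.9% of genes lower), and with the B lineage level subtracted it turned to 0.42. That subtraction ignores the greater depth of GMP-like cells, so no sign is read from it. Csf2rb and Csf3r were called lower in the B lineage as well (-2.10 and -2.85), beside 30.3% (23.3% lower). No receptor was called from day 2 to day 7 in monocyte-like (background 10.4%), basophil or mast cell-like (8.96%), HSPC-like (23.5%), plasmacytoid DC-like (5.15%) or conventional DC-like cells (5.02%).

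Between day 7 and naive BM none of the receptors compared was called within any class. The backgrounds were 3.81% in mature, 1.39% in immature and 0.67% in progenitor or pre-neutrophil-like cells, 1.87% in GMP-like, 1.09% in monocyte or MDP-like and 0.95% in monocyte-like cells. In conventional DC-like, basophil or mast cell-like and B lineage cells they were 1.17%, 6.53% and 3.66%.

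Basophil or mast cell-like cells were few (71, 59 and 25 cells) but rich in IL-3 receptor chains. At 1000 UMIs, 36.6%, 68.4% and 28.0% of them held a Csf2rb UMI against 0.737%, 3.03% and 1.40% of B lineage cells. Their median depths were 4440, 3170 and 6644 UMIs, and unthinned shares were 91.5%, 89.8% and 80.0% against 2.96%, 8.68% and 6.28% in the B lineage. The class joined cluster 22, with 597, 1056 and 346 CPM of Csf2rb, and the smaller cluster 13_5, with 165, 276 and 291 CPM. On day 2 the class ratio of 0.79 (0.48 to 1.09) was not called, beside a background of 7.53%.

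Csf2rb2 and Il3ra also had their highest value in basophil or mast cell-like cells. Csf2rb2 stood at 221, 207 and 233 CPM and Il3ra at 126, 82.8 and 130 CPM in naive, D2 and D7 CTX BM, with intervals that overlapped between libraries. Plasmacytoid DC-like cells were second for Csf2rb2 (75.5, 94.2 and 87.8 CPM). For Il3ra, conventional DC-like cells (34.4, 54.3 and 37.2 CPM), monocyte or MDP-like cells (43.9, 30.4 and 47.9 CPM) and plasmacytoid DC-like cells (32.3, 29.0 and 27.9 CPM) came next. On day 2 the interval of conventional DC-like cells lay above those of the other pair and overlapped that of the basophils. Csf2ra had few UMIs in the basophil class, with 3, 0 and 5 UMIs in naive, D2 and D7 CTX BM. In D2 CTX BM that was 0 UMIs in 59 cells, which by a floor of 3 counts allows a level of up to 8.88 CPM. Over the 3 libraries together Csf2ra stood at 8.36 CPM in this class (3.61 to 16.5). The 5 UMIs of day 7 came from the fewest basophils, so a low level is not shown for that library.

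Il6ra was highest in monocyte-like cells at 284 CPM in naive BM, 272 CPM on day 2 and 246 CPM on day 7, and monocyte or MDP-like cells had 158, 134 and 142 CPM. Their day 2 ratios were -0.06 (-0.28 to 0.15) and -0.24 (-0.47 to -0.01), the second with an interval below 0, and neither was called. The neutrophil values moved more. Mature neutrophil-like cells went from 98.3 CPM to 221 CPM and back to 78.3 CPM, and their day 2 ratio of 1.17 (0.85 to 1.49) was called, the only one of 4 receptors compared, beside a background of 12% (10.6% higher). With each cell gated on markers alone it was 0.87, and relative to the median gene of the class 0.72, both below the call. In immature neutrophil-like cells Il6ra had 41.7, 78.5 and 32.9 CPM, ratios of 0.91 (0.68 to 1.15) and -0.34 (-0.57 to -0.12). In T or NK-like cells it was 61.8, 118 and 14.9 CPM, the last from 11 UMIs in 45 cells. It was the one receptor compared there, not called on day 2 (background 6.94%) and called lower from day 2 to day 7 (-2.98, background 37.8%, 22.4% lower).

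**Figure D3:**
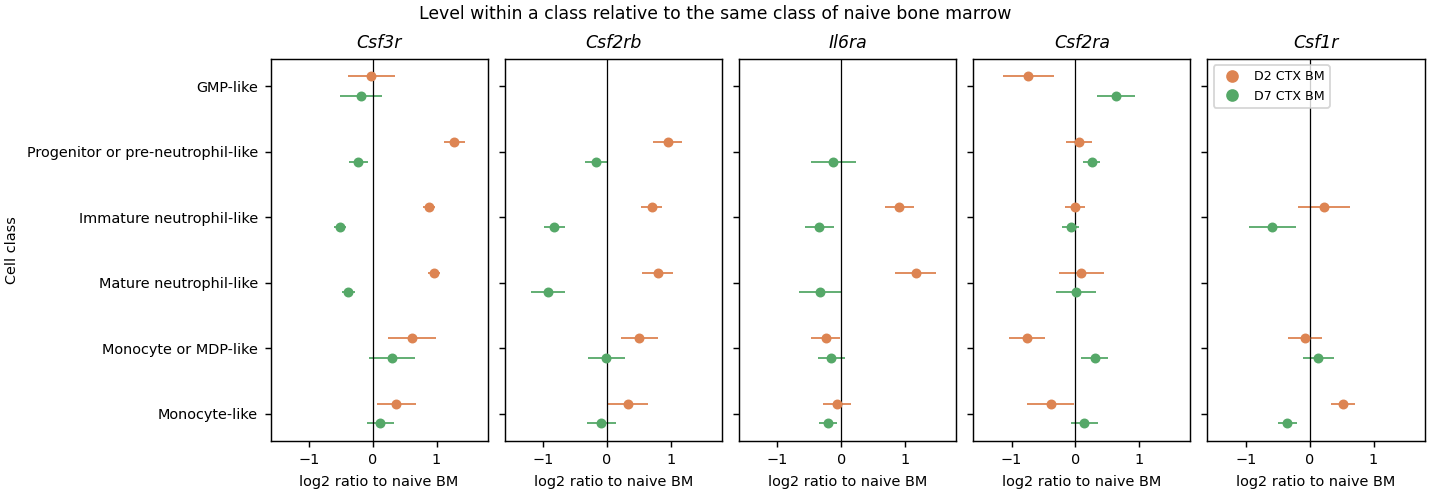
Log2 ratio of a receptor's level within a cell class to the same class of naive BM, on day 2 and day 7; points are the ratios and bars exact 95% intervals for counting error, shown where the gene had enough counts to be compared. Csf3r, Csf2rb and Il6ra lie right of 0 on day 2 and left of 0 on day 7 in immature and mature neutrophil-like cells, and Csf2ra lies left of 0 on day 2 and right of 0 on day 7 in GMP-like and monocyte or MDP-like cells.

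Kit was highest in HSPC-like cells (Cd34, Hlf, Meis1) at 180, 156 and 150 CPM, with a day 2 ratio of -0.20 (-0.53 to 0.13) and a background of 4.68% there. On day 7 megakaryocyte-like cells had 105 CPM from 30 UMIs, and their interval overlapped that of HSPC-like cells. An unnamed cluster led by Car1, Gata2 and Muc13 had 114 CPM in naive BM and 92.2 CPM on day 2. GMP-like cells had 39.8, 40.6 and 26.4 CPM, and the day 7 ratio there was -0.59, with an interval below 0. In progenitor or pre-neutrophil-like cells and later neutrophils Kit was at most 11.3 CPM.

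The HSPC-like class was small and its makeup changed. It held 62, 61 and 34 cells in naive, D2 and D7 CTX BM, of which 46, 15 and 28 came from cluster 13_0 and 16, 46 and 6 from cluster 13_4. Kit was 253, 244 and 152 CPM in cluster 13_0 and 85.2, 147 and 143 CPM in cluster 13_4. Kit itself was among the 10 leading genes of cluster 13_4, and cluster 13_0 also carried the eosinophil and basophil genes Epx and Prg2. At 1000 UMIs, 30.6%, 9.84% and 14.7% of HSPC-like cells held a Kit UMI against 0.371%, 0.388% and 0.139% of mature neutrophils, while unthinned shares were 75.8%, 93.4% and 58.8% against 0.482%, 0.360% and 0.136%. Median depths of the HSPC-like cells were 8571.5, 25333 and 7263 UMIs and of the neutrophils 2019, 1637.5 and 3422 UMIs. Since the order of shares turns with thinning, none is read from them.

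Flt3 was highest in the dendritic cell classes. Conventional DC-like cells, a class that has Flt3 among its leading genes, had 142, 129 and 163 CPM and plasmacytoid DC-like cells 98.4, 151 and 113 CPM. Within the former the ratios were -0.14 (-0.47 to 0.19) on day 2 and 0.19 (-0.12 to 0.51) on day 7, and both intervals held 0 (background on day 2 of 3.47%). In the latter the day 2 ratio was 0.62 (0.22 to 1.04) and not called (background 2.46%). HSPC-like cells had 30.5, 31.7 and 97.3 CPM of Flt3, the last from 26 UMIs. At 1000 UMIs, 14.3%, 9.84% and 16.0% of conventional DC-like cells and none of the 539, 516 and 722 mature neutrophils held a Flt3 UMI. A count of 0 (floor of 3 counts) allows 0.557%, 0.581% and 0.416% of the neutrophils to hold a UMI at this depth, which is no limit on cells expressing the gene. Depths of conventional DC-like cells were 10637, 17995 and 9216 UMIs, those of mature neutrophils 2019, 1637.5 and 3422 UMIs, and the unthinned shares 70.3%, 72.1% and 68.3% against 0.161%, 0% and 0.136%.

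Outside these classes, 121 of the 603 Flt3 UMIs of day 2 lay in 1 B lineage cluster. Cluster 9, led by the pre-B cell genes Igll1, Vpreb1 and Vpreb3, had 4.47 CPM of Flt3 in naive BM, 120 CPM on day 2 and 5.17 CPM on day 7. It had 606 cells in naive BM, 48 on day 2 and 119 on day 7. Without that cluster the library levels were 7.64 CPM in naive BM and 14.6 CPM on day 2, and the ratio with 1 CPM added fell to 0.86, below the call. GMP-like cells had 8.85, 28.3 and 1.69 CPM of Flt3, from too few UMIs to be compared.

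Library levels mix how large a share of the UMIs comes from each class with the level within each class. The share of UMIs depends on the number of cells of a class and on their depth. By cell number, progenitor or pre-neutrophil-like cells made up 12.4%, 5.62% and 34.4% of naive, D2 and D7 CTX BM, B lineage cells 29.0%, 29.0% and 2.69%, and GMP-like cells 2.32%, 1.06% and 5.86%. The 2 parts were separated by arithmetic, giving each class its naive level and the treated library its own class makeup, counted in UMIs. Makeup is therefore not cell number alone. GMP-like and HSPC-like cells, for example, were deeper on day 2, as given above, and so weighed more per cell. For Csf3r on day 2 this gave 107 CPM against 215 CPM measured, or 0.31 against 1.32 log2 units over naive BM. Csf2rb came to 51.3 CPM by makeup against 83.1 CPM measured, and Flt3 to a ratio of 0.74 against 1.31. For Kit on day 2 makeup alone gave 21.4 CPM and 23.3 CPM was measured. On day 7 makeup alone would have given 143 CPM of Csf3r and 61.1 CPM of Csf2rb, and 113 and 46.3 CPM were measured. For Csf2ra the measured value was the higher one, with 80.4 CPM from makeup and 90.4 CPM measured. Kit came to 8.19 CPM by makeup and 5.62 CPM measured.

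**Figure D4:**
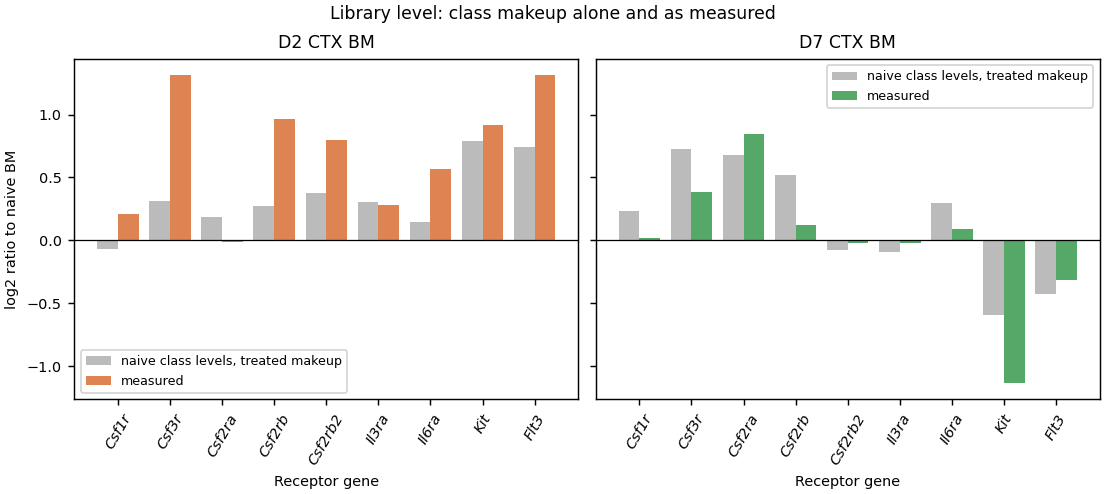
Log2 ratio to naive BM of each receptor's library level, as measured (coloured bars) and as arithmetic from naive class levels with the treated library's class makeup by share of UMIs (grey bars), for D2 and D7 CTX BM. On day 2 the makeup bar of Csf3r reaches 0.31 and the measured bar 1.32, whereas the bars of Kit (0.79 and 0.91) lie close together.

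Sorted monocytes showed small differences between conditions and large ones between clusters. None of the 7 receptors compared was called between CTX and naive sorted monocytes, beside a background of 1.06%. The largest ratios were 0.26 for Il3ra (0.13 to 0.39), 0.21 for Il6ra (0.15 to 0.27) and 0.16 for Csf2ra (0.11 to 0.22), and Csf1r had -0.11 (-0.17 to -0.04). Csf3r (78.2 and 77.0 CPM), Csf2rb (85.5 and 88.3 CPM) and Csf2rb2 (11.8 and 12.5 CPM) did not differ beyond counting error. Within the cycling clusters (613 naive and 976 CTX cells) and the other main clusters (1177 and 1422 cells) the ratios of all 7 stayed between -0.07 and 0.30, with none called (backgrounds 0.465% and 0.954%). In DCMo-like cells only Csf1r could be compared, at -0.18, beside a background of 3.28%.

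Among the clusters, Csf1r was highest in DCMo-like cells, the dendritic cell-related monocytes, with 350 CPM in naive and 309 CPM in CTX sorted monocytes. The other main clusters had 204 and 194 CPM, cycling clusters 108 and 114 CPM and NeuMo-like cells, the neutrophil-related monocytes, 29.9 and 32.0 CPM. The order of these groups was the same in both libraries. A small cluster rich in neutrophil granule genes had 27.3 CPM over both libraries (16 UMIs). Its interval overlapped that of NeuMo-like cells (31.6 CPM from 33 UMIs), so a low Csf1r level was not particular to the latter. NeuMo-like cells numbered only 10 in the naive and 53 in the CTX library. A NeuMo-like cluster was also named at resolution 1.2 and without integration, but not at resolution 0.4. There an unnamed cluster (30 naive and 89 CTX cells) scored highest on both the NeuMo-like and the neutrophil granule lists.

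Csf2ra ran differently, with its highest level in cycling clusters (242 and 276 CPM) and 202 and 217 CPM in the other main clusters. Il3ra was likewise higher in cycling (43.2 and 52.5 CPM) than in the other main clusters (30.6 and 33.7 CPM). Il6ra had 216 and 265 CPM in the other main clusters and 146 and 173 CPM in cycling ones. Csf3r followed Il6ra, with 106 and 115 CPM against 48.0 and 46.4 CPM, and reached 209 and 176 CPM in a small cluster rich in neutrophil granule genes.

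Flt3 and Kit were rare in sorted monocytes and highest in different cluster groups. Flt3 had 15.1 and 30.6 CPM in DCMo-like cells (7 and 11 UMIs) and at most 5.64 CPM in the other main and cycling clusters, each summed as a group. At resolution 1.2 a small cluster of the other main group (19 naive and 29 CTX cells) had Cd209a and Flt3 among its leading genes. The DCMo-like cluster had the plasmacytoid DC markers Siglech and Ccr9 among its own. Which single cluster held the most Flt3 is therefore not settled. Kit had 14.9 and 24.9 CPM in NeuMo-like cells, where 24 of the 30 Kit UMIs of both libraries were found. The cycling and other main clusters held 1 Kit UMI in all.

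**Figure D5:**
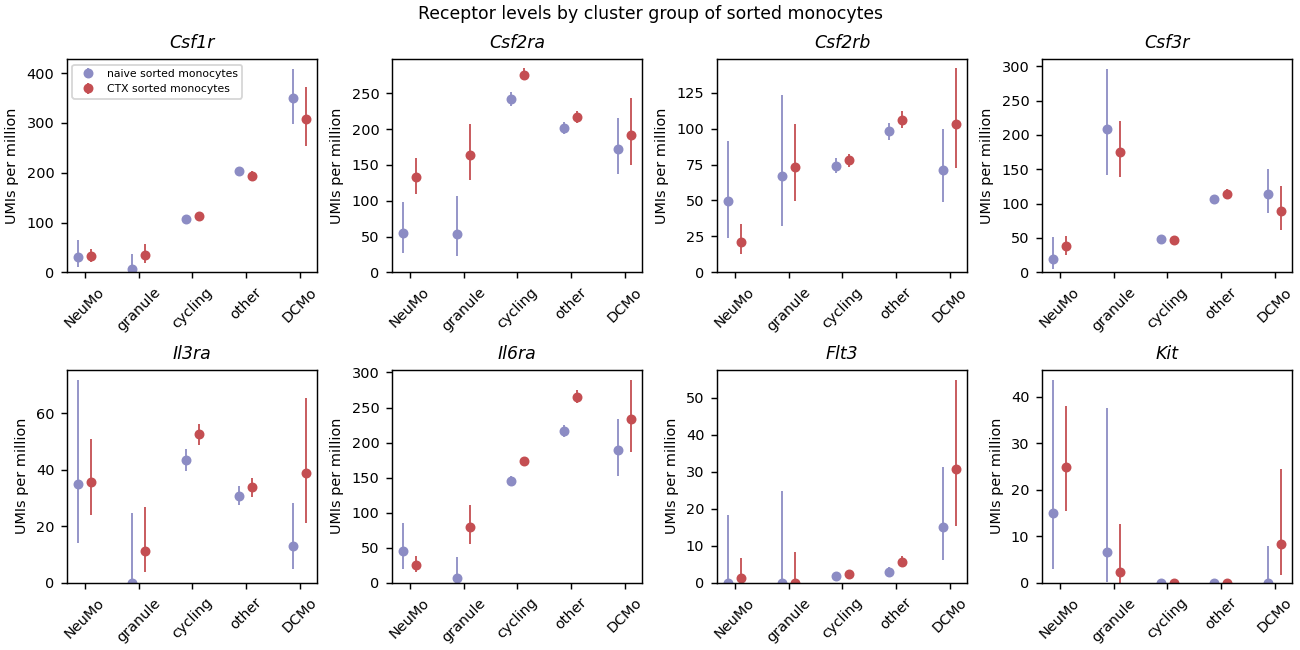
Level of 8 receptor genes in 5 cluster groups of naive and CTX sorted monocytes, in CPM with exact 95% Poisson intervals (counting error only). Csf1r is lower in NeuMo-like (29.9 CPM in naive) than in DCMo-like cells (350 CPM), and the naive and CTX points of the large cycling and other groups lie close together.

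Csf2ra and Csf2rb, which form 1 receptor, were set against their separate shares in single cells. At 2000 UMIs, 5.39% of naive and 5.54% of CTX cycling sorted monocytes held both Csf2ra and Csf2rb, and the products of the single shares were 5.52% and 5.84%. In the other main clusters of CTX sorted monocytes the 2 chains were both found in 8.82% of cells (7.36% to 10.5%) with a product of 7.16%, the one value of these whose interval lay above it. At 4000 UMIs it was 19.7% with a product of 18.3%, inside the interval. Without thinning 65.7% of naive and 63.8% of CTX cycling monocytes held both chains of Csf2ra and Csf2rb. With shares this low the pairing of chains in a cell was not resolved at this depth.

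The genes whose levels ran most like each receptor were found over 39 class-by-library sums of whole BM, which share libraries and depth. Csf1r ran with Clec4a3 (r = 0.93), Clec4a1 and Ifi202b, and Csf3r with Mtus1 (r = 0.93), N4bp1 and Gda. Il6ra was closest to Zdhhc9 (r = 0.87), Gpr65 and Metrnl, and Il3ra to Tmed2 (r = 0.89), Use1 and Prkag2. Csf2ra ran with Ebi3 (r = 0.87), Slc31a2 and Aldh3b1, and Flt3 with Trappc5 (r = 0.88), Mef2c and Bloc1s2. Kit was nearest to Egfl7 (r = 0.85), H1fx and Muc13, and Csf2rb to Ptpre (r = 0.84), Man2b1 and Rgs18. For Csf2rb2 the closest gene was Csf2rb (r = 0.82), followed by Cdh1 and Rbfa. Among the receptors themselves Csf1r and Il6ra ran together (r = 0.81), and Kit and Il6ra ran opposite (r = -0.56).

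The other genes of these pathways were read from fixed lists, as library levels. For them class makeup was not separated from the level within classes. Of 8 ligands, 4 had enough UMIs to compare on day 2 and 2 were called higher, beside 6.2% of all genes. Kitl went from 1.13 to 5.13 CPM and Csf1 from 4.99 to 11.4 CPM, while Il6 (2.80 and 5.77 CPM) fell short of the call. Il3 had no UMI in any library. Among related receptors Epor, the erythropoietin receptor, was called lower on day 2 (21.3 to 4.74 CPM). Erythroid markers summed to 16621 CPM in naive BM and 2461 CPM on day 2.

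Of 10 feedback genes and phosphatases of cytokine receptors, 3 were called on day 2, all higher, beside 6.2% of all genes. Cish went from 2.06 to 12.3 CPM, Socs3 from 5.47 to 17.6 CPM and Socs1 from 8.75 to 19.7 CPM. The target Ccnd2, a cyclin, went from 49.7 to 164 CPM and was the only one of 5 targets called. Over the whole BM libraries together, T or NK-like cells were among the 3 highest classes for each of these 4 genes. They had 54.9 CPM of Cish, 41.5 CPM of Socs3, 116 CPM of Socs1 and 521 CPM of Ccnd2. Such cells numbered 250 in naive BM and 523 on day 2, and the part of that in these calls was not tested. None of the 10 kinases and STATs, 5 adaptors or 2 sheddases was called on day 2. Their medians, 0.57 for kinases and STATs, 0.52 for adaptors and 0.33 for sheddases, lay beside 0.19 for all genes.

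From day 2 to day 7 most pathway genes compared were lower, as was the library as a whole. Not all were: the adaptors Tyrobp (0.51) and Shc1 (0.32) and the kinase Fes (0.24) lay higher, none of them called. Sos1 was the one adaptor called lower. The sheddase Adam10 and the related receptors Il6st and Il7r were called lower too. All 4 ligands compared were called lower, as were 4 of 10 kinases and STATs (Jak2, Stat3, Stat5a and Syk), 6 of 10 feedback genes and 4 of 5 targets, beside 37.8% of all genes. Against naive BM on day 7, 2 of 9 feedback genes (Socs2 and Cblb), 3 of 5 targets (Bcl2l1, Myc and Ccnd2) and 2 of 3 related receptors (Epor and Il7r) were called lower, beside 24.9% of all genes. In sorted monocytes Socs3 was the one pathway gene called, at 48.8 CPM in naive and 16.7 CPM in CTX cells, beside 1.06% of all genes (0.861% lower). Clustering without integration gave a cluster of 579 naive and 21 CTX cells led by Cxcl2 and Socs3. The part of that cluster in the Socs3 call was not tested.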

How the data were processed

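Per the submitters' processing notes, reads were handled with Cell Ranger 3.1 and Seurat 5.0 on mm10. The authors deposited raw UMI counts per gene and cell, 1 matrix per library, with no normalization. The study states more cells per library than the deposited barcodes (2223 to 8605), and the extra cells were not analysed here. Barcodes needed 200 or more genes and a mitochondrial share under 20%. UMIs were summed per library and per class and divided by the total (CPM). Intervals are exact Poisson (levels), exact conditional (ratios) and Clopper-Pearson (shares) at 95%. They cover counting error only. A gene was compared with at least 200 UMIs over both libraries and 5 CPM in 1, and called at 1 log2 unit with 1 CPM added. This call, interval and ratio code was checked on simulated counts.

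Whole BM and sorted cells were clustered separately in Seurat 5.3.0 (R 4.3.3): 2000 variable genes without the 9 receptors, 30 components, reciprocal PCA, resolution 0.8, with cluster 13 split at 0.5. A cluster took the name of the marker list it scored highest on, given at least 3 detected markers and 1 among its top 10 genes. The naming rule and the split were chosen after seeing the data, and names may differ from the study's. The B lineage class joins the B cell clusters. Doublets were left in, and their removal (scanpy 1.11.5 Scrublet, 29 to 550 cells per library) was an alternative. Class ratios needed 20 cells in both libraries. Shares were thinned to 1000 UMIs per cell (2000 in sorted cells). Each receptor is named with the 3 genes of highest Pearson correlation, from class sums of at least 50 cells and genes reaching 20 CPM. The pathway genes come from lists, of which 1 gene is not reported here. The receptors and lists were chosen with earlier results of these data known. All 9 gene identifiers matched GENCODE M21, and promoter sequences are RefSeq's. No column was left out as belonging to another sample.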

Additional observations from a re-analysis of the deposited data

Results flagged for a closer look

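Some receptors lay on opposite sides of naive BM on day 2 and on day 7, each with a counting interval clear of 0. There were 11 such cases, 9 of them within a cell class. The difference between the days was not tested, since each condition is 1 library and both ratios share the naive one. In neutrophils the course was up and then down. Csf3r had log2 ratios of 0.96 and -0.38 in mature, 0.88 and -0.52 in immature and 1.28 and -0.23 in progenitor or pre-neutrophil-like cells. Csf2rb had 0.80 and -0.92 in mature and 0.70 and -0.82 in immature cells, and Il6ra 0.91 and -0.34 in immature cells.

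Csf2ra went the other way, with -0.74 and 0.63 in GMP-like cells and -0.76 and 0.30 in monocyte or MDP-like cells. Csf1r in monocyte-like cells had 0.53 and -0.35. In the whole library Kit had 0.91 and -1.14 and Flt3 1.31 and -0.32. When the ratios were scaled by the median gene, 10 of the 11 kept both signs, and Flt3 on day 7 turned to 0.35 with 1 CPM added.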

How the results depend on the processing

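The number of receptors called changed as follows. On day 2 against naive BM, 0 were called within myeloid and progenitor classes alone (2 as reported). On day 7 against naive BM, 0 were called with all barcodes, with 500 genes and 10% mitochondrial UMIs as limits, or with the mean of the cells' CPM, and 2 with median scaling (1 as reported). From day 2 to day 7, 5 were called lower within myeloid and progenitor classes, and 3 (Csf2ra higher, Flt3 and Kit lower) with the 20 most abundant genes left out of the total (2 as reported). The sorted count was 0 throughout. Csf2rb in GMP-like cells, lower on day 7 than on day 2 by 1.06, reversed to 0.42 with the B lineage level subtracted. The subtraction ignores the greater depth of GMP-like cells, so the reversal is not read as a result. Of the class ratios, the sign was kept by 230 of 242 without doublets, 161 of 178 without integration, 188 of 232 with each cell gated alone and 176 of 194 with that subtraction. Among class ratios named above, Csf3r in mature neutrophils on day 7 ranged from -0.38 to 0.15 over 9 alternatives, and Csf1r in monocyte-like cells on day 2 fell to 0.03 with cells gated alone. The cause was not tested. With Spearman correlation 2 of 9 receptors kept their 3 likest genes in name and order. Some settings were chosen after seeing the data, namely median scaling within classes, no split of cluster 13 and no cluster 9. Depth limits shares in classes of under 100 cells. No paired analysis was possible because each group has 1 library.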

Other observations

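Ligands of these receptors were read in several classes. Basophil or mast cell-like cells had 248, 423 and 170 CPM of Csf1 and 260, 544 and 176 CPM of Il6 in naive, D2 and D7 CTX BM. Kitl stood at 274, 465 and 211 CPM in an unnamed cluster led by Cxcl12, Fabp4 and Adipoq, genes of stromal and fat cells, whose 92, 94 and 46 cells were shallow. Macrophage-like cells had 17.4 CPM of Kitl in naive BM (2 UMIs) and 119 CPM on day 2 (34 UMIs). On day 7 they had 0 UMIs, with an interval up to 62.2 CPM. Csf2, which encodes GM-CSF, was read 25 times in D2 CTX BM, and 19 of those UMIs lay in an unnamed cluster of 24 cells led by Gata3, Il2ra and Il1rl1. Flt3l had 40.6, 64.1 and 14.9 CPM in T or NK-like cells (46, 110 and 11 UMIs) and 5.98, 11.7 and 4.48 CPM in the B lineage (65, 70 and 10 UMIs).

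Kit was also read in B lineage cluster 18, led by the pro-B cell genes Vpreb1, Igll1, Dntt and Rag1. There it had 18.3 CPM in naive BM, 46.3 CPM on day 2 and 97.4 CPM on day 7, from 10, 23 and 16 UMIs in 167, 126 and 46 cells. Flt3 in the same cluster had 4, 1 and 2 UMIs.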
